A study of Mus musculus with 16 samples.

Results

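The genes described here build, trim or carry the glycans of secreted and membrane proteins and lipids: glycosyltransferases, sulfotransferases of glycans, mannosidases, and mucins other than Muc5b. They were chosen by symbol alone, as the genes whose array annotation starts with Galnt, B3g, B4g, St3gal, St6gal, St8sia, Fut, Gcnt, Mgat, Chst, Man1, Man2, Alg or Muc in the form of a numbered or lettered family member. The choice of these families was made with earlier results of these data known, while the rule itself uses symbols and no measured value. The array annotation holds 137 such genes, 90 of them had a probe set whose label could be tied to its values, and 59 passed the filter on low values, out of 9866 named genes and 7276 tested genes in all.

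Whole mouse lung was profiled on 16 Affymetrix arrays in a model of experimental asthma, in 4 groups of 4. The groups were BALB/c (an inbred strain) given ovalbumin (OVA), the main protein of egg white and the allergen of this model; BALB/c given the control solution, phosphate-buffered saline (PBS); and 2 matching groups of a line titled BALB-RAG. Lungs were taken on day 22, with the final exposure 1 day earlier. Rag genes are needed to assemble antigen receptors, and their loss is known to leave mice without mature T and B cells; the labels give neither the allele behind the BALB-RAG title nor the age or sex of the mice. Whether replicates are different animals is not said in the labels, and p-values here measure only the spread between arrays, which may be technical.

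Mucins are large proteins whose serine- and threonine-rich stretches carry dense O-linked glycans. Polypeptide GalNAc-transferases start these glycans by adding N-acetylgalactosamine, other transferases extend, branch and cap them with galactose, N-acetylglucosamine, fucose and sialic acid, and carbohydrate sulfotransferases add sulfate. N-linked glycans are built on dolichol by the Alg enzymes, passed to asparagine in the endoplasmic reticulum, trimmed by mannosidases and rebuilt by the Mgat transferases. In allergic airways the surface epithelium is known to take on goblet cells, which fill with gel-forming mucins.

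All values are log2 of the deposited intensity. The deposited values were already normalised, so they cannot show how alike the arrays were in raw signal. Their median intensities ran from 18.2 to 20.5, with 52.1 to 53.5% of probe sets over log2 4. That level served as the filter, and a gene had to pass it on at least 4 arrays. Precision is limited by there being 4 arrays in a group. Gene names rest on a realignment of labels to values, since in the deposited table long stretches of probe set labels stand beside the values of other probe sets. Of 45101 labels, 14300 in 3 stretches were realigned and all others were left out. The second stretch was read 47 rows below its labels; the opposite direction, 47 rows above, put the club cell secretoglobin Scgb3a2 at 1.88 in BALB/c after PBS, against 13.01 as used here. Groups were kept as titled, although lymphocyte transcripts did not bear out all titles of the BALB-RAG line. The mean of 8 T cell markers after PBS lay between 4.34 and 5.0 under the BALB-RAG label, where BALB/c arrays had 4.45 to 4.89. Under that label after OVA, replicate 2 had 5.46 while replicates 1, 3 and 4 had 3.50, 3.63 and 3.71, and BALB/c arrays had 5.01 to 6.81. The mean of 5 B cell markers followed the titles after PBS, at 4.82 to 5.29 under the BALB-RAG label, where BALB/c arrays had 5.96 to 6.24 with no overlap, and after OVA it read 6.01 on that replicate 2 and 3.77 to 4.03 on the others. The mean of 4 plasma cell markers did not follow the titles after PBS. It lay between 7.54 and 8.90 under the BALB-RAG label, where BALB/c arrays had 6.63 to 7.85. After OVA it likewise read 9.33 on that replicate 2 and 5.33 to 5.84 on the others. For comparisons that use that array, the members called are given with and without it. The values of the differences are given only with it.

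Promoters of 3 members that rose after OVA in BALB/c are shown first, because they are the genes of a membrane mucin, of a transferase that acts on mucin-type O-glycans and of a glycolipid transferase that all rose. Each window runs 5′ to 3′ on the gene's strand and covers 250 bases before and 50 bases after the transcription start, 300 in all, from the RefSeq annotation of GRCm38.p6. Capitals mark the motif GGGCGG, the core of the box that Sp1-type factors bind. They also mark TATAAA, the core promoter motif that TBP binds. Both were searched on either strand.
Muc4, chr16:32735636-32735935, plus strand: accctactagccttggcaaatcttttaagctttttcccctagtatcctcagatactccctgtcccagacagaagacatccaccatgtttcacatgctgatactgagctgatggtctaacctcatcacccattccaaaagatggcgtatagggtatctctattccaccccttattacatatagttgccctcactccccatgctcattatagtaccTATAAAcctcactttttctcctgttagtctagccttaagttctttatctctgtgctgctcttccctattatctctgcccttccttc
Galnt7, chr8:57653006-57653305, minus strand: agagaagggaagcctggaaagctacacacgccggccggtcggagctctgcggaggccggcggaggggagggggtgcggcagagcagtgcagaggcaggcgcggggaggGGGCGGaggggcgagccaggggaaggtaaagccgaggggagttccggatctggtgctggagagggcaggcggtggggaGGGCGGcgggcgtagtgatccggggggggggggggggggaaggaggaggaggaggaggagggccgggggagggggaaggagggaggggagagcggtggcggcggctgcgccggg
B3gnt5, chr16:19759984-19760283, plus strand: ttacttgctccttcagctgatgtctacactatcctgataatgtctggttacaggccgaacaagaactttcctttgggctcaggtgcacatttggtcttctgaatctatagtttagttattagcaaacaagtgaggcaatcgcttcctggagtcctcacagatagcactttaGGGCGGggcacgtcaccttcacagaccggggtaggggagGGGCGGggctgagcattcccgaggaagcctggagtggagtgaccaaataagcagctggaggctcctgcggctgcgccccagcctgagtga
The Muc4 window held 1 TATAAA and 0 GGGCGG, and the Galnt7 and B3gnt5 windows held 2 GGGCGG each and 0 TATAAA. RefSeq promoters were found for 43 of the 59 tested members. GGGCGG stood in 57.1% of their 56 promoters, against 35.7% of all 32851 promoters of the same length. TATAAA stood in 5.36% of them, against 13.6% of all promoters. A STAT-type palindrome, searched on both strands as TTC and GAA with any 4 bases between them, stood in 1 of the 56 promoters, against 6.95% of all promoters. The tested members had passed the filter on low values, while the set of all promoters was not filtered, so these shares do not compare like with like. None of these letter matches is a measured binding site.

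The first question was how these genes respond to the allergen in BALB/c lungs. Of the 59 tested members 13 changed (limma, adjusted p under 0.05): 9 rose, among them the membrane mucin Muc4, the GalNAc-transferases Galnt6 and Galnt7 and the lysosomal mannosidase Man2b1, and 4 fell, among them the branching enzyme Gcnt2 and the sialyltransferase St6galnac3. Over all tested genes 15.5% were called, 8.73% higher and 6.78% lower, so the members' share of 22.03% is to be read against that. With arrays centred on their medians 565 genes were higher and 628 lower, against 635 and 493 without centring, and 8 members were higher and 5 lower. Muc4 alone among the 59 passed the filter only through the group in which it was high, as did 13 of all tested genes, so its place among the 13 is no support for their count. The median difference over the tested members was 0.15, against 2.17e-05 over all tested genes, and the median size of a difference regardless of sign was 0.26 against 0.24. For each of the 13 the 4 OVA arrays did not overlap the 4 PBS arrays, as for 86.6% of all genes called; among all tested, groups did not overlap for 28.8% of members and 19.6% of genes. In a lung homogenate, fewer cells of a type and less RNA per cell cannot be told apart.

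**Figure D1:**
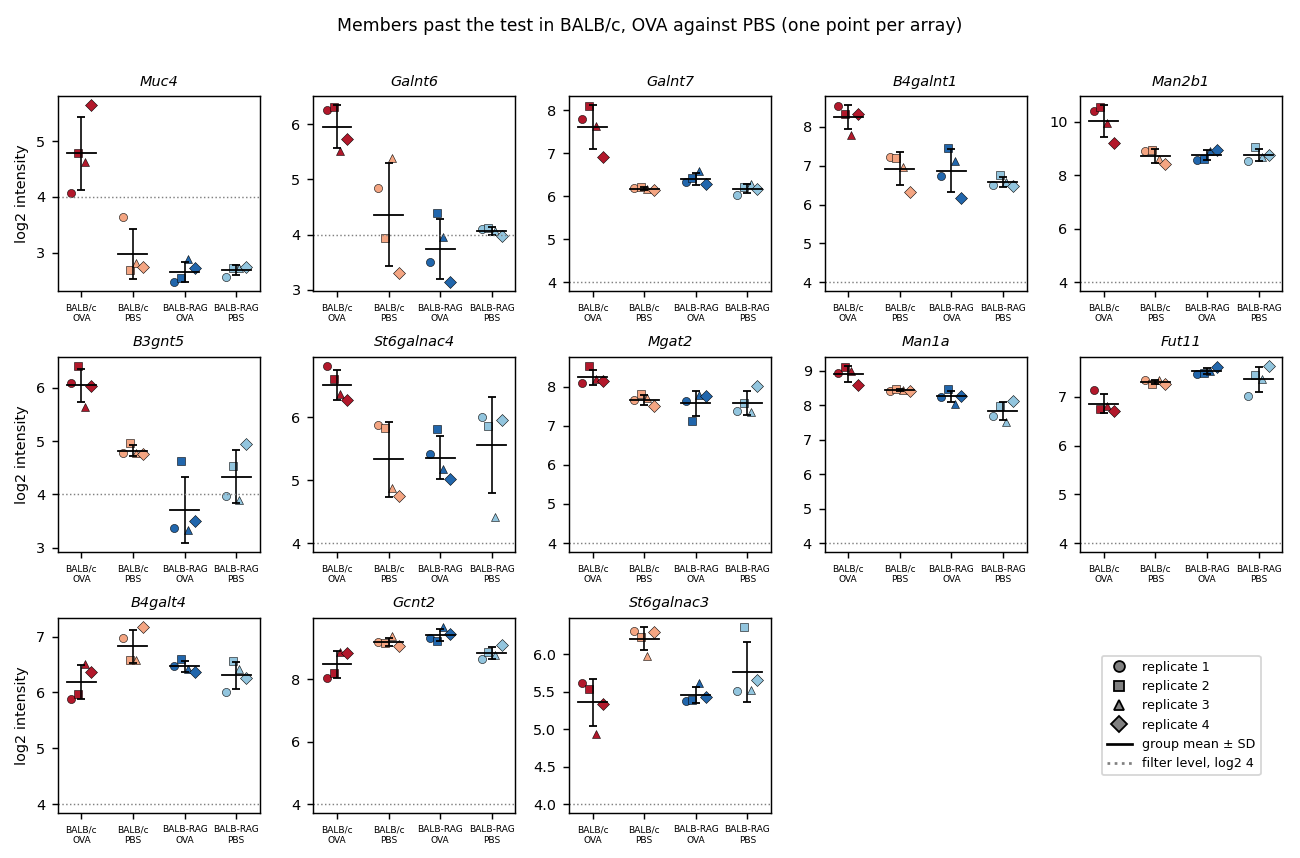
Log2 intensity (y axis) of the 13 members that passed the test for OVA against PBS in BALB/c, 1 point per array in each of the 4 groups, with the group mean and SD as bars and the filter level of log2 4 dotted. In BALB/c the OVA and PBS points do not overlap in any panel, and the 9 genes that rose come before the 4 that fell.

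Among mucins, Muc4 and Muc13 were tested; both are membrane-bound. Muc4 read 4.07, 4.78, 4.62 and 5.64 on replicates 1 to 4 of BALB/c after OVA, against 3.64, 2.70, 2.81 and 2.74 after PBS. All 4 OVA arrays lay above log2 4 and all 4 PBS arrays below it, as did all 8 BALB-RAG arrays. With values under log2 4 set to 4 it rose at least 1.71-fold (n = 4 per group, limma adjusted p = 0.000294 on the values as measured), and no exact fold is given. Muc13 read 3.62, 3.94, 3.97 and 4.15 in BALB/c after OVA, against 3.97, 3.78, 4.10 and 4.10 after PBS, close to the filter level and overlapping, with a difference of -0.07 ± 0.15 (SE). The gel-forming mucin Muc5b, which the symbol rule leaves out, averaged 9.67 ± 0.58 after OVA and 7.17 ± 0.35 after PBS, a difference of 2.50 ± 0.34 (SE, adjusted p = 0.000139). Muc15 and Muc3 stayed below the filter, with highest values of 3.10 and 2.87 on any array. Muc1, Muc2, Muc5ac, Muc16 and Muc20 had no realigned probe set and are not analysed here.

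Polypeptide GalNAc-transferases are the enzymes that start mucin-type O-glycans, and 2 of the 9 tested rose while 0 fell. Here and for each family and list below, BALB/c counts stand against 8.73% of all tested genes higher and 6.78% lower. With so few genes in each family, a count is no result about the family. Galnt7, which prefers peptides that already carry a sugar, read 7.79, 8.10, 7.63 and 6.91 in BALB/c after OVA, against 6.19, 6.21, 6.16 and 6.13 after PBS. The PBS arrays were nearly equal and every OVA array stood above them, replicate 4 the least; the difference was 1.43 ± 0.19, or 2.70-fold (SE, n = 4 per group, adjusted p = 0.000107). A second Galnt7 probe set moved the same way, by 1.86 (adjusted p = 0.00282 where every probe set was tested). Galnt6, a close relative of Galnt3, read 6.25, 6.31, 5.51 and 5.74 after OVA, against 4.84, 3.93, 5.38 and 3.30 after PBS. Its PBS arrays were widely spread, 2 of them lay under log2 4, and the highest PBS array came close to the lowest OVA array; the fold was 3.01 (adjusted p = 0.00764). The other 7, Galnt1, Galnt2, Galnt3, Galnt4, Galnt10, Galnt11 and Galnt16, had differences from -0.11 to 0.32 that did not pass. Galnt1, the most intense probe set of this family, read 8.76, 8.77, 9.07 and 9.40 after OVA, against 8.62, 8.46, 8.86 and 9.02 after PBS, with the groups overlapping.

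Enzymes that extend glycans through a beta-1,3 or beta-1,4 linkage gave 1 rise among 9 tested beta-1,3 enzymes and 1 rise and 1 fall among 5 tested beta-1,4 enzymes. B3gnt5, which makes lactotriaosylceramide, the start of lacto- and neolacto-series glycolipids, read 6.10, 6.41, 5.65 and 6.04 in BALB/c after OVA, against 4.78, 4.97, 4.77 and 4.75 after PBS. The groups lay far apart relative to their spread, at a fold of 2.34 (adjusted p = 0.00716). B4galnt1, the ganglioside GM2 and GD2 synthase, read 8.53, 8.33, 7.80 and 8.33 after OVA, against 7.23, 7.19, 6.97 and 6.32 after PBS. Again no OVA array reached down to a PBS array, and the fold was 2.50 (adjusted p = 0.00227). Both of these enzymes act on glycolipids and not on mucins. B4galt4, which adds galactose to N-acetylglucosamine, read 5.88, 5.97, 6.51 and 6.37 after OVA, against 6.97, 6.58, 6.58 and 7.17 after PBS. It was lower on every OVA array, with OVA replicate 3 close to the nearest PBS arrays, at a difference of -0.65 ± 0.18 (SE, adjusted p = 0.0209). The call was lost when BALB/c OVA replicate 1 or 2 or BALB/c PBS replicate 1 or 4 was left out, with an adjusted p of up to 0.0767. The other 8 tested beta-1,3 transferases ranged from -0.29 to 0.01, and B3galnt2 read 7.01, 7.05, 7.32 and 7.09 after OVA, against 7.34, 7.50, 7.20 and 7.58 after PBS. The 3 other beta-1,4 transferases ranged from 0.22 to 0.95, including B4galt1, which makes the common galactose linkage of N- and O-glycans and read 8.40, 8.77, 8.80 and 8.18 after OVA, against 8.19, 8.33, 8.41 and 8.34 after PBS.

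Sialyltransferases, which cap glycans with sialic acid, gave 1 rise and 1 fall among 10 tested. Both belong to the St6galnac family, which places sialic acid on the GalNAc of O-glycans or related chains. St6galnac4 read 6.81, 6.61, 6.36 and 6.28 in BALB/c after OVA, against 5.87, 5.82, 4.88 and 4.74 after PBS. The PBS arrays fell into an upper and a lower pair, both below every OVA array, and the fold was 2.28 (adjusted p = 0.0260). A second St6galnac4 probe set differed by 0.64 and did not pass (adjusted p = 0.117), and the call was lost without BALB/c OVA replicate 1 or 2 or BALB/c PBS replicate 3 or 4 (adjusted p up to 0.0918). St6galnac3 read 5.62, 5.54, 4.93 and 5.33 after OVA, against 6.31, 6.23, 5.98 and 6.30 after PBS. It fell by 0.85 ± 0.19 on the log2 scale (SE, n = 4 per group, adjusted p = 0.00612), with every OVA array below every PBS array. The other 8 ranged from -0.62 for St8sia2, a polysialyltransferase, to 0.53 for St3gal4, which caps galactose. St8sia4, also a polysialyltransferase, averaged 9.38 ± 0.23 after OVA and 9.16 ± 0.45 after PBS (SD, n = 4 each). St3gal2 differed by -0.41 on the probe set used (adjusted p = 0.0509) and by -0.68 on another (adjusted p = 0.0278).

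Gcnt-type branching and fucosylation were represented by 1 tested gene each, and both fell. Gcnt2, which adds the I-type branch to polylactosamine chains, read 8.02, 8.18, 8.87 and 8.82 in BALB/c after OVA, against 9.18, 9.16, 9.37 and 9.07 after PBS. OVA replicates 1 and 2 stood well below the PBS arrays and replicates 3 and 4 just below them; the difference was -0.72 ± 0.19 (SE, adjusted p = 0.0146), and -0.80 on a second probe set (adjusted p = 0.0124). Without OVA replicate 1 or 2 the call was lost (adjusted p up to 0.0568). Fut11, a member of the fucosyltransferase family, read 7.15, 6.76, 6.82 and 6.71 after OVA, against 7.35, 7.27, 7.35 and 7.27 after PBS. It fell by 0.45 ± 0.14 on the log2 scale (SE, adjusted p = 0.0342), a call lost in 7 of the 16 fits that left out 1 array (BALB/c OVA replicate 2, 3 or 4, or any BALB/c PBS array, adjusted p up to 0.0963). Fut2, which makes the terminal fucose of secretor-type glycans, passed log2 4 on 3 arrays with a highest value of 4.13, and Gcnt3, the mucin-type core 2 and core 4 branching enzyme, reached 4.10 on 1 array. Both were below the filter and were not tested, and Gcnt1, Fut8 and Chst4 are not analysed here.

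Among the N-glycan enzymes, mannosidases gave 2 rises in 7 and the Mgat transferases 1 in 5, and 0 fell in either class. Man2b1, a lysosomal alpha-mannosidase that degrades glycans instead of building them, read 10.39, 10.54, 9.94 and 9.21 in BALB/c after OVA, against 8.92, 8.94, 8.60 and 8.41 after PBS. Every OVA array was higher, replicate 4 the least, with a fold of 2.47 (adjusted p = 0.0015). Man1a, an alpha-1,2-mannosidase of the early Golgi, read 8.94, 9.12, 9.0 and 8.60 after OVA, against 8.41, 8.47, 8.45 and 8.42 after PBS. Its PBS arrays were nearly equal, and the difference was 0.48 ± 0.15 (SE, adjusted p = 0.0416). A second Man1a probe set rose by 0.98 (adjusted p = 0.00632). Mgat2, which adds the second antenna that makes an N-glycan complex, read 8.09, 8.52, 8.18 and 8.15 after OVA, against 7.65, 7.81, 7.70 and 7.49 after PBS. It stood higher on all 4 OVA arrays, at a difference of 0.57 ± 0.18 (SE, adjusted p = 0.0392). Man1a and Mgat2 are the least firm of the 13: each lost its call with arrays centred on their medians, and in 9 and 8 of the 16 fits that left out 1 array, with an adjusted p of up to 0.130 and 0.129. Mgat4a, a branching transferase, differed by 0.76 and missed the threshold (adjusted p = 0.0512), and Mgat4b averaged 8.20 ± 0.05 after OVA and 7.94 ± 0.12 after PBS (SD, n = 4 each). None of the 7 tested Alg enzymes of the dolichol pathway passed, with differences from -0.24 to 0.46; Alg5, which makes dolichol-linked glucose, read 7.66, 7.42, 7.26 and 7.41 after OVA, against 7.62, 7.44, 6.93 and 6.86 after PBS.

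None of the 3 tested carbohydrate sulfotransferases passed in BALB/c. Chst2, which puts sulfate on N-acetylglucosamine, read 4.93, 4.88, 4.69 and 5.64 after OVA, against 5.29, 5.24, 5.43 and 5.57 after PBS, and the groups overlapped. Chst14, a dermatan sulfotransferase, read 6.32, 6.72, 5.87 and 5.77 after OVA, against 6.35, 5.92, 5.86 and 5.79 after PBS, and these groups overlapped too. The third was Chst15, which makes a disulfated chondroitin unit. Differences ranged from -0.44 to 0.19.

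**Figure D2:**
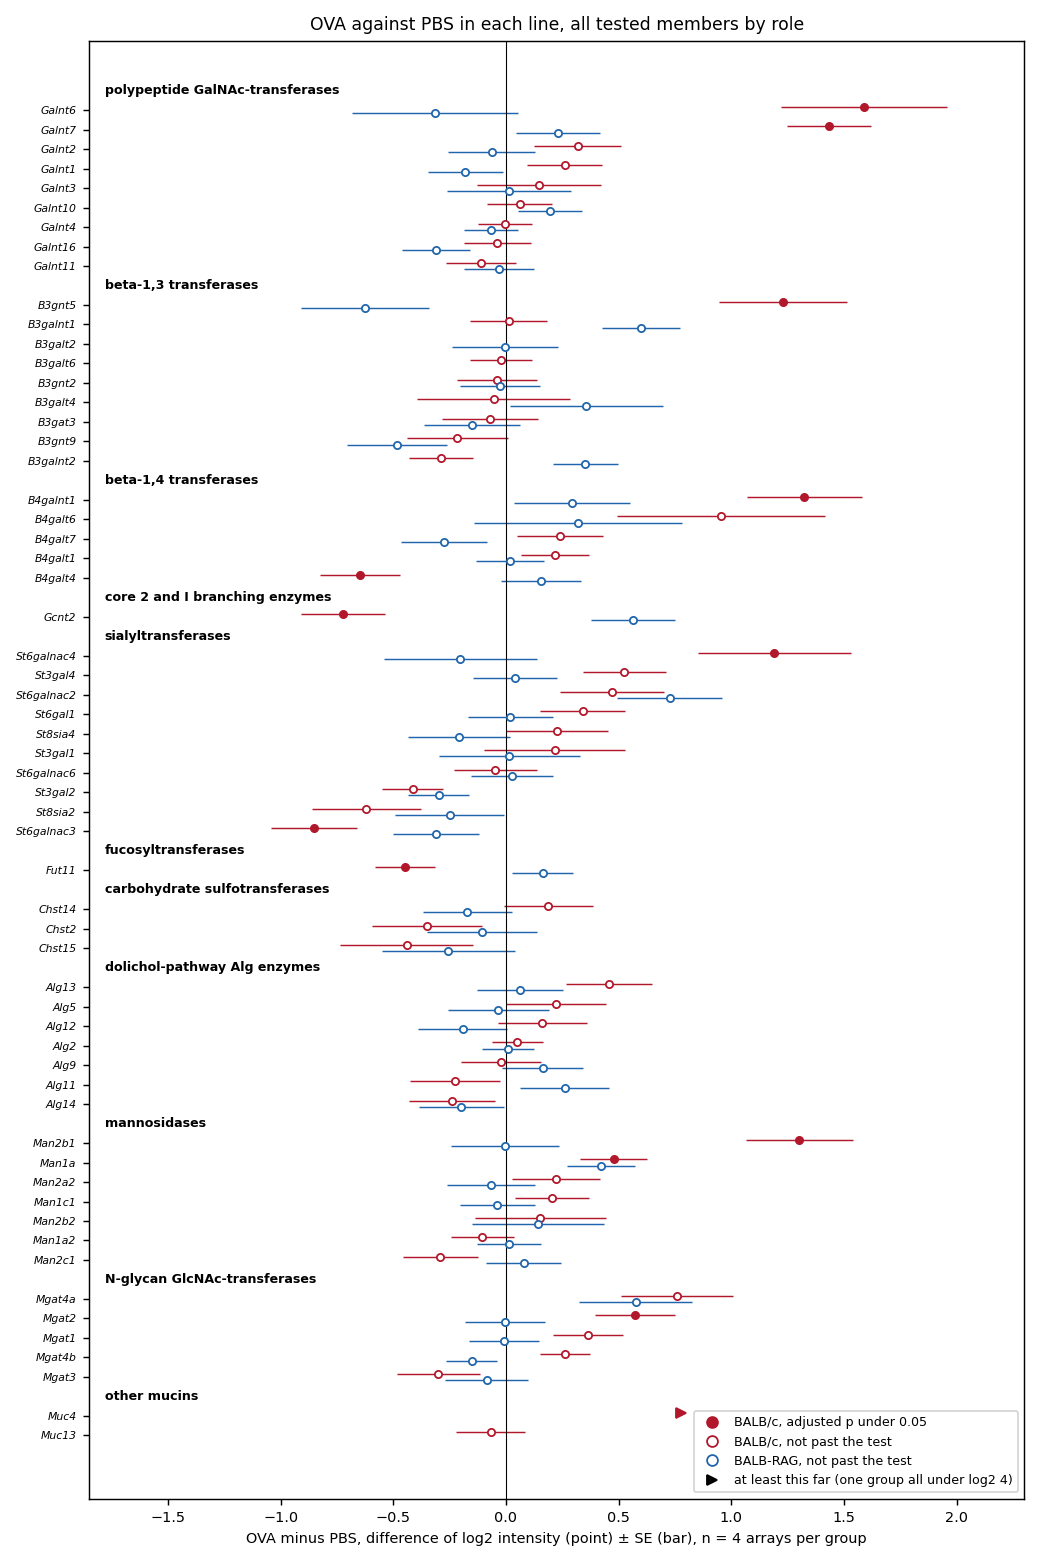
OVA minus PBS as a difference of log2 intensity (x axis) for the 59 tested members (rows, by role), in BALB/c (red, upper of each pair) and on BALB-RAG-labelled arrays (blue, lower), with bars for the SE and n = 4 arrays per group. Filled points passed the test: 13 in BALB/c, from -0.85 for St6galnac3 to 1.59 for Galnt6, with Muc4 as a triangle at its lower bound, and 0 on BALB-RAG-labelled arrays, where differences ran from -0.63 to 0.73. No point is drawn where both groups lie under log2 4 or where the bound is under 1-fold.

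Arrays of BALB/c with the same replicate number deviated together, and with that number fitted as a block the 13 calls in BALB/c remained and 5 were added: B4galt6, a lactosylceramide synthase (adjusted p = 0.0138 with the block against 0.196 without), Mgat1 (0.0383 against 0.133), Mgat4a (0.0436 against 0.0512), St3gal2 (0.0175 against 0.0509) and St3gal4 (0.0208 against 0.0688). The block also raised the count over all tested genes, from 1128 to 1764. A term for replicates 1 and 2 against 3 and 4 added the same 5 members. Galnt7 and Man2b1 kept their call in all 28 alternative settings. Muc4, B4galnt1, B3gnt5, Galnt6 and St6galnac3 kept it in each of the 16 fits that left out 1 array. Without BALB/c OVA replicate 2 the count of members called was 7, or 11.9% against 10.9% of all genes, and without replicate 1 of that group it was 8, or 13.6% against 11.7%. With the BALB/c arrays fitted alone 9 members were higher and 1 lower, and the falls of B4galt4, Fut11 and Gcnt2 and the rise of Man1a lost their call.

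Genes that supply or surround these enzymes were counted in lists taken from textbook pathways. Among donor synthesis genes 0 of 14 tested passed in BALB/c, among Golgi nucleotide sugar transporters 0 of 8, and among other glycosyltransferases of the secretory pathway, 0 of 14. In the list of oligosaccharyltransferase and endoplasmic reticulum trimming genes 2 of 15 rose and 0 fell. Both were of the Edem family, which directs misfolded glycoproteins to degradation: Edem1 averaged 9.16 ± 0.70 after OVA and 7.41 ± 0.55 after PBS (SD, n = 4 each; difference 1.75, adjusted p = 0.00272), and Edem2 differed by 0.74 (adjusted p = 0.0280). Among sulfotransferases of heparan sulfate, tyrosine and other acceptors 3 of 8 fell and 0 rose. They were the heparan sulfotransferases Hs3st1 (-0.99, adjusted p = 0.00532) and Hs2st1 (-0.82, adjusted p = 0.0141), and the tyrosylprotein sulfotransferase Tpst1 (-0.41, adjusted p = 0.0368).

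Markers of several cell types moved with the same contrast. The goblet cell list rose in 6 of 6 tested members, and its mean lay between 8.33 and 9.01 in BALB/c after OVA, against 4.26 to 5.52 after PBS. Its member Clca1 averaged 13.45 after OVA and 4.56 after PBS. In the macrophage list 4 of 5 rose, with means of 10.08, 10.11, 9.65 and 9.09 on replicates 1 to 4 after OVA, against 7.23 to 7.92 after PBS. The plasma cell list rose in 2 of 4, at 8.76 to 10.02 after OVA against 6.63 to 7.85 after PBS, and the T cell list in 4 of 8, at 5.01 to 6.81 after OVA against 4.45 to 4.89 after PBS. In the B cell list 1 of 5 rose, at 6.37 to 7.63 after OVA against 5.96 to 6.24 after PBS, and in the proliferation list 4 of 4, at 7.03 to 8.04 after OVA against 4.77 to 5.55 after PBS. The club cell list fell in 5 of 6, at 10.79 to 11.43 after OVA against 11.73 to 12.14 after PBS, and the endothelial list in 2 of 7, at 9.30 to 9.93 after OVA against 10.01 to 10.24 after PBS. None of the 7 alveolar, 6 ciliated, 5 neutrophil or 2 eosinophil markers tested passed. The neutrophil list ranged from 5.51 to 8.56 over the BALB/c PBS arrays. Only 2 of 8 listed eosinophil markers were tested, so that list can say little about eosinophils. Its mean lay between 5.29 and 6.32 after OVA, against 5.13 to 5.41 after PBS. The part of these cells in the members' changes was not tested.

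**Figure D3:**
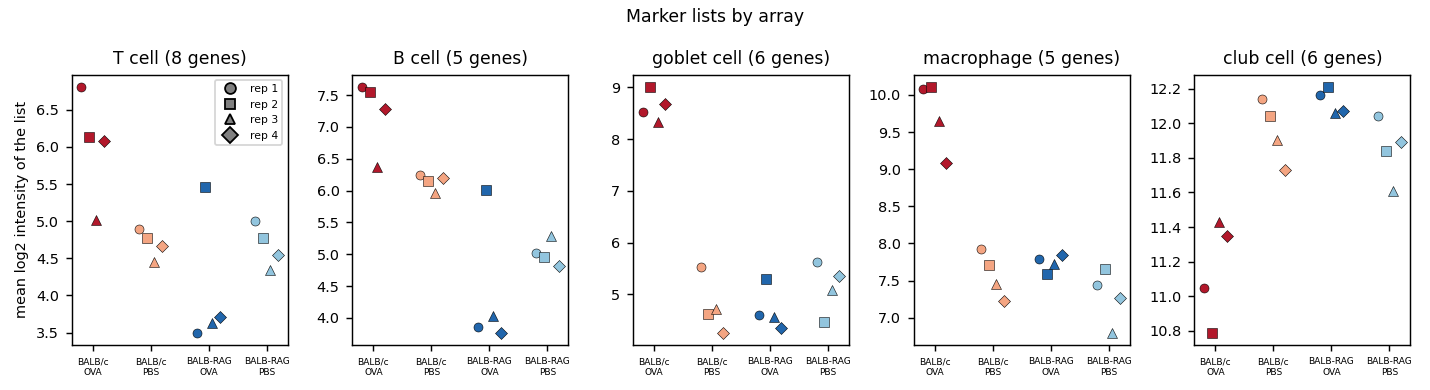
Mean log2 intensity (y axis) of 5 marker lists, 1 point per array in each group. The goblet cell and macrophage lists stand apart in BALB/c after OVA, at 8.33 to 9.01 and 9.09 to 10.11, the club cell list is lowest there, and replicate 2 of the BALB-RAG-labelled arrays after OVA reads 5.46 for T cells and 6.01 for B cells, above the other replicates of its group.

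On the arrays labelled BALB-RAG, 0 of 59 members passed the test for OVA against PBS, where 0.165% of all tested genes were called, 0.137% higher and 0.0275% lower. The smallest adjusted p among the members was 0.263 (limma), and 9 members had an unadjusted p under 0.05, as did 562 of all tested genes. Without replicate 2 of the OVA arrays, which stood apart in its lymphocyte markers, the count of members stayed at 0 and that of all genes was 42, against 12 with it. Muc4 read 2.48, 2.55, 2.89 and 2.72 after OVA, against 2.56, 2.73, 2.73 and 2.74 after PBS, all under the filter level. Galnt7 read 6.33, 6.42, 6.59 and 6.28 after OVA, against 6.03, 6.22, 6.27 and 6.17 after PBS, every OVA array above every PBS array by a small margin (0.23 ± 0.19, SE). Galnt6 read 3.50, 4.39, 3.96 and 3.14 after OVA, against 4.10, 4.12, 4.06 and 3.97 after PBS, so it lay around the filter level. B3gnt5 read 3.37, 4.63, 3.32 and 3.50 after OVA, against 3.97, 4.53, 3.89 and 4.94 after PBS, with replicate 2 alone above log2 4 after OVA. Man2b1 averaged 8.75 ± 0.19 after OVA and 8.75 ± 0.21 after PBS, and Gcnt2 averaged 9.40 ± 0.20 after OVA and 8.84 ± 0.19 after PBS (SD, n = 4 each). The largest member differences were those of St6galnac2 (0.73 ± 0.23), B3gnt5 (-0.63 ± 0.28) and B3galnt1 (0.60 ± 0.17, SE), and none of them passed. Of the goblet cell list 0 of 6 passed here, with means of 4.34 to 5.30 after OVA and 4.47 to 5.63 after PBS.

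A test of the difference between the 2 responses, BALB/c minus BALB-RAG, called 6 of the 59 members, or 10.17%, against 8.49% of all tested genes (4.63% with the larger and 3.86% with the lower response in BALB/c). The response was larger in BALB/c for Galnt6 (1.90 ± 0.52, adjusted p = 0.0339), B3gnt5 (1.85 ± 0.40, adjusted p = 0.00878), Man2b1 (1.30 ± 0.34, adjusted p = 0.0257) and Galnt7 (1.20 ± 0.26, adjusted p = 0.0102; SE, limma). For Gcnt2 it was lower in BALB/c (-1.29 ± 0.26, adjusted p = 0.00655): this gene had a negative difference in BALB/c and a positive one, of 0.57 ± 0.19, on BALB-RAG-labelled arrays that did not pass (adjusted p = 0.333). The remaining call was Muc4, for which 3 of the 4 groups lay wholly under log2 4. With those values set to 4 its difference was 0.78 and did not pass (adjusted p = 0.147), and 5 members were called. Muc4 passed the filter only through the group in which it was high, so its call is no support for the count of 6. For B3gnt5 and Galnt6, 3 of the 4 BALB-RAG OVA arrays lay under log2 4, so the sizes of their differences are uncertain. Both calls remained with values under log2 4 set to 4. The Galnt6 call was lost with the mean of all its probe sets. It was also lost in 9, and the Man2b1 call in 6, of the 16 fits that left out 1 array (adjusted p of up to 0.0746 and 0.0597). Without replicate 2 of the BALB-RAG OVA arrays all 6 calls remained and B3galnt2 and B4galnt1 were added. Over all tested genes, fits that left out 1 array called 414 to 687, against 618 with every array. With the replicate number as a block 10 members were called, the 6 and B3galnt2, B4galnt1, B4galt4 and St6galnac4, the last at an adjusted p of 0.0192 with the block against 0.0919 without. The block also raised the count over all tested genes, from 618 to 1152. With arrays centred on their medians 5 responses were larger in BALB/c and 2 smaller, against 5 and 1 without centring. Of the surrounding pathway genes, Edem1 had a larger response in BALB/c (1.94, adjusted p = 0.0222), and Hs3st1 (-1.24, adjusted p = 0.0200) and the sulfate donor synthase Papss2 (-1.02, adjusted p = 0.00755) a lower one. Over the same test the goblet cell list was called in 6 of 6 and the macrophage list in 4 of 5, all larger in BALB/c.

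The lines were also compared after each exposure. After PBS, 2 of 59 members differed, or 3.39%, against 3.9% of all tested genes (1.97% higher and 1.94% lower). Mgat4b, a branching transferase of N-glycans, read 8.53, 8.30, 8.28 and 8.44 on BALB-RAG-labelled arrays, against 8.06, 7.87, 7.80 and 8.02 in BALB/c. The groups did not overlap, at a difference of 0.45 ± 0.11 (SE, n = 4 per group, adjusted p = 0.0343). Man1a read 7.70, 7.99, 7.53 and 8.13 on BALB-RAG-labelled arrays, against 8.41, 8.47, 8.45 and 8.42 in BALB/c, a difference of -0.60 ± 0.15 (SE, adjusted p = 0.0356). Neither call is firm. The count of members called was 0 when any one BALB/c PBS array or BALB-RAG PBS replicate 1 was left out, 1 without BALB-RAG PBS replicate 3 or 4, and 4 with the replicate number as a block, which added Alg11 and B3galnt1 (adjusted p = 0.0366 and 0.0413). The block also raised the count over all tested genes, from 284 to 609.

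After OVA, 17 of 59 members differed between the lines, 10 of them lower on BALB-RAG-labelled arrays and 7 higher, or 28.81% against 23.8% of all tested genes (12.1% lower and 11.6% higher). This comparison shares its BALB/c OVA arrays with the test of the OVA response in BALB/c, so the 2 sets of values are not independent. The lower members included 8 that rose in BALB/c and whose values stand above, at differences of -2.34 ± 0.28 for B3gnt5, -2.20 ± 0.37 for Galnt6, -1.37 ± 0.26 for B4galnt1, -1.27 ± 0.24 for Man2b1, -1.21 ± 0.19 for Galnt7, -1.16 ± 0.34 for St6galnac4, -0.67 ± 0.18 for Mgat2 and -0.66 ± 0.15 for Man1a (SE, limma adjusted p from 2.76e-05 to 0.0208). Muc4 was at least 1.71-fold lower, with all 4 BALB-RAG arrays under log2 4 (adjusted p = 4.29e-05). It passed the filter only through BALB/c after OVA, so its place among the 17 is no support for that count. St8sia4 read 8.48, 8.76, 8.44 and 8.66 on BALB-RAG-labelled arrays, against 9.05, 9.51, 9.41 and 9.57 in BALB/c; the groups did not overlap (-0.80 ± 0.23, SE, adjusted p = 0.0169). Polysialyltransferases such as St8sia4 are known to act on cell surface glycoproteins of neurons and leukocytes. Several marker lists were lower in the same contrast: T cell in 6 of 8, B cell in 4 of 5, goblet cell in 6 of 6 and macrophage in 4 of 5. The club cell list was higher in 5 of 6. In BALB/c, where the T cell list rose after OVA, St8sia4 differed by 0.23 and did not pass (limma adjusted p = 0.600). The part of any cell type in the St8sia4 difference was not tested.

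The higher members were led by B3galnt1, the globoside synthase, which read 7.10, 7.26, 7.61 and 7.05 on BALB-RAG-labelled arrays after OVA, against 5.82, 5.88, 6.52 and 6.08 in BALB/c. The groups lay well apart, at a fold of 2.26 (adjusted p = 0.000137), and this call held in all 28 alternative settings. After PBS the same gene read 6.39, 6.75, 6.59 and 6.89 on BALB-RAG-labelled arrays, against 6.10, 6.24, 5.93 and 5.98 in BALB/c, a difference of 0.59 ± 0.17 that did not pass (SE, adjusted p = 0.0712). St6galnac2, an O-glycan sialyltransferase, read 8.40, 8.55, 8.24 and 8.68 on BALB-RAG-labelled arrays after OVA, against 8.01, 7.94, 7.34 and 6.90 in BALB/c (0.92 ± 0.23, SE, adjusted p = 0.00832). Its BALB/c arrays were spread over more than a log2 unit while those labelled BALB-RAG lay close together. Chst2 read 5.93, 6.50, 5.59 and 5.82 on BALB-RAG-labelled arrays, against 4.93, 4.88, 4.69 and 5.64 in BALB/c, with BALB/c replicate 4 reaching into the other group (0.92 ± 0.24, adjusted p = 0.0113). After PBS Chst2 differed by 0.68 ± 0.24 and did not pass (adjusted p = 0.153). St8sia2 read 5.47, 5.23, 5.71 and 5.23 on BALB-RAG-labelled arrays after OVA, against 5.04, 4.35, 4.75 and 4.55 in BALB/c, a difference of 0.73 ± 0.24 (SE, adjusted p = 0.0379). Man2c1, a cytosolic mannosidase, read 8.61, 8.94, 9.33 and 9.20 on BALB-RAG-labelled arrays, against 8.43, 8.17, 8.59 and 8.71 in BALB/c, and the groups overlapped (0.55 ± 0.17, adjusted p = 0.0267). Gcnt2 and Fut11, which fell in BALB/c, made up the 7, at 0.93 ± 0.19 and 0.67 ± 0.14. The calls of Man2c1, St6galnac4 and St8sia2 were lost in 4, 4 and 6 of the 16 fits that left out 1 array. Without replicate 2 of the BALB-RAG OVA arrays all 17 calls remained. With the replicate number as a block they also remained, and 7 were added, among them Galnt1 (adjusted p = 0.0085 with the block against 0.0870 without) and B4galt1 (0.0299 against 0.101). The block also raised the count over all tested genes, from 1729 to 2453.

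**Figure D4:**
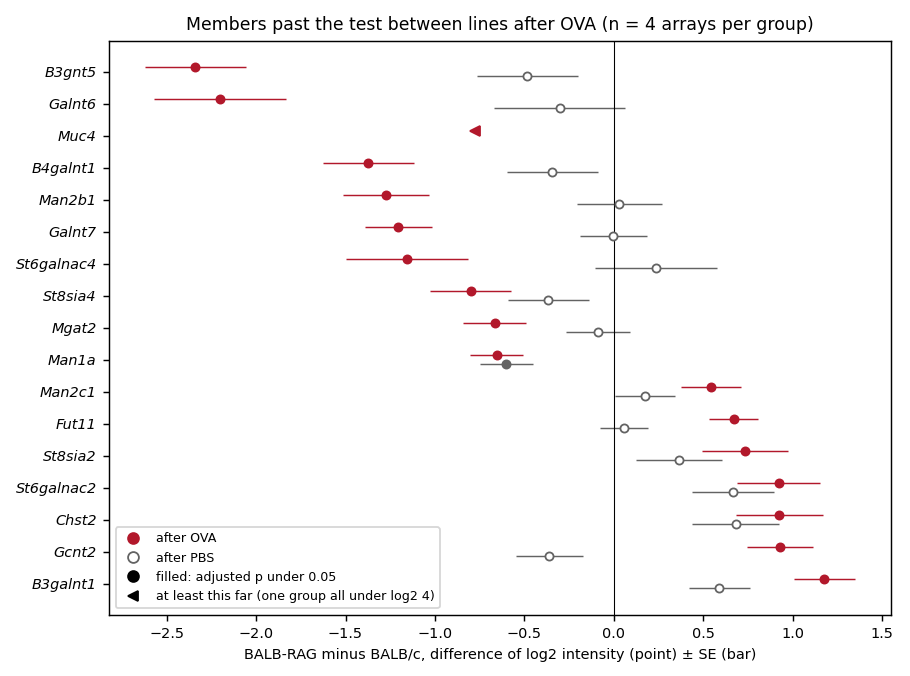
BALB-RAG minus BALB/c as a difference of log2 intensity (x axis) for the 17 members that passed the test after OVA, shown after OVA (red) and after PBS (grey), with bars for the SE and n = 4 arrays per group; filled points passed. After OVA the values run from -2.34 for B3gnt5 to 1.18 for B3galnt1, and of the same genes only Man1a passed after PBS. For B3gnt5 and Galnt6, 3 of the 4 BALB-RAG OVA arrays lay under log2 4. Muc4 is a triangle at its bound after OVA and is not drawn after PBS, where both groups lay under log2 4.

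A second probe set did not always repeat the one used. Of the 59 tested members 14 had more than 1 probe set past the filter. For Galnt10 the probe set used had a difference between responses of -0.13 (adjusted p = 0.790), and another gave 1.20 (adjusted p = 0.0152). For Alg14 another probe set was higher by 0.58 on BALB-RAG-labelled arrays after OVA (adjusted p = 0.0130), against 0.01 for the one used, and for Galnt1 another gave -0.45 (adjusted p = 0.0371), against -0.42 (adjusted p = 0.0870).

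The remaining 31 members with a realigned probe set stayed below the filter and were not tested. Of these, 22 had no array above log2 4, among them Fut7 and Fut9, St3gal3, St6galnac1, St8sia1 and B4galt5. The other 9 passed it on 1 to 3 arrays, among them Galnt9 (3 arrays, highest 4.20), B3gnt8 (2 arrays, 4.32), B3gnt7 (1 array, 4.40) and the branching transferase Mgat5 (1 array, 5.28). The further 47 members had no realigned probe set and are not analysed here.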

How the data were processed

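RNA from whole lung was isolated with TRIZOL and 6 µg of it made into biotin-labelled cRNA, per the labels' protocols. The deposited values are linear intensity made with GCRMA, per the submitters' processing notes, in a version the sources used here do not give. They span 2.32 to 35181, and no 2 arrays held identical values. Log2 was taken and nothing else was normalised.

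Deposited labels were out of step with values. Following an earlier realignment of these data, labels of 3 stretches took the values 64 rows above (4000 labels), 47 rows below (7500) and 16168 rows below (2800), and all others were dropped. Probe sets of the same gene, both above log2 6, then correlated across arrays at medians of 0.666, 0.618 and 0.630, against 0.161, 0.129 and 0.152 as deposited. The rule received for the second stretch read 47 rows above; there the correlation was 0.027 and housekeeping labels averaged 5.91, against 8.08 at 47 below, so 47 below was used. Read 47 above, the members called of 61 would be 10 in BALB/c (16.4%, against 14.7% of all genes), 0 in BALB-RAG (0.173% of all genes), 5 for the difference (8.2% against 7.96%), 3 after PBS (4.92% against 3.67%) and 20 after OVA (32.8% against 23.3%). Of realigned labels 13146 had 1 symbol, 366 several and 788 none; only the first were used. RefSeq (GRCm38.p6) changed 0 member symbols.

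Genes needed log2 above 4 on at least 4 arrays, and the probe set with the highest mean stood for a gene. limma 3.58.1 in R 4.3.3 fitted 4 group means over 16 arrays (12 residual degrees of freedom), with empirical Bayes moderation and Benjamini-Hochberg adjustment over 7276 genes at 0.05, for 5 comparisons; the code was tested on simulated data. A fold is written "at least" if no array of the lower group reached log2 4; values under 4 were then set to 4. The members and lists were chosen with earlier results of these data known. Values per array are given for the 20 members called in any comparison and for the member of highest mean in each role, in the comparisons where they are described; others are given mainly by range and count, and up to 3 genes of a surrounding list are named, those with the smallest p in BALB/c.

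Replicate numbers come from the titles. Deviations from the group mean correlated between same-numbered arrays at 0.304 to 0.456 between OVA and PBS in BALB/c, 0.0253 to 0.478 in BALB-RAG, 0.320 to 0.349 between lines after PBS and 0.182 to 0.332 after OVA. In that order, only 2, 2, 1 and 2 of 4 arrays correlated best with the array of their own number. The numbers are therefore not shown to mark matched pairs, and the block served only as an alternative. Alternatives changed the filter, a floor at log2 4, the probe set rule, centring, the limma settings, the arrays fitted, the replicate block, and a split of replicates 1 and 2 from 3 and 4; each array was also left out.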

Additional observations from a re-analysis of the deposited data

Results flagged for a closer look

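The OVA response differed between BALB/c and the arrays labelled BALB-RAG for 6 members by a test of the difference itself: Galnt6 (1.902 on the log2 scale, BALB/c minus BALB-RAG), B3gnt5 (1.855), Muc4 (1.832), Man2b1 (1.305), Galnt7 (1.203) and Gcnt2 (-1.288). The Muc4 value rests on groups under the filter level and did not pass with values under log2 4 set to 4 (0.78, adjusted p = 0.147). The Galnt6 call was lost with the mean of all its probe sets. It was also lost in 9, and the Man2b1 call in 6, of the 16 fits that left out 1 array. In 5 of the 100 groups of 4 arrays looked at among the members given per array, 1 array stood far from the other 3, and chance alone gives about 1 in 20. B3gnt5 read 4.63 on replicate 2 of the BALB-RAG OVA arrays, against 3.32 to 3.50 on the others; the same array was high in T cell, B cell and plasma cell markers. B3gnt5 also read 4.97 on BALB/c PBS replicate 2, against 4.75 to 4.78. St6galnac4 read 4.42 on BALB-RAG PBS replicate 3, against 5.86 to 6.01. Galnt1 read 8.51 on BALB-RAG PBS replicate 1, against 8.82 to 8.87. B3galnt2 read 7.40 on BALB-RAG PBS replicate 4, against 6.90 to 6.97.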

How the results depend on the processing

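No member named as called changed direction under any alternative. Counts are members called, then all genes called. With the replicate number as a block, all genes called were 1764 for OVA in BALB/c (1128 without), 41 in BALB-RAG (12), 1152 for the difference (618) and 609 between lines after PBS (284), and members called were 10 for the difference (6) and 4 after PBS (2). The block ended no member's call. A term for replicates 1 and 2 against 3 and 4 gave 1820, 67, 1214 and 635 genes, and 11 and 5 members, in the same order. With replicates 3 and 4 alone, members called were 5 in BALB/c, 1 for the difference, 0 after PBS and 6 after OVA, with 547, 5, 212, 52 and 693 genes for BALB/c, BALB-RAG, the difference, after PBS and after OVA; fewer arrays entered. With replicates 1 and 2 alone, 3 genes in BALB-RAG and 0 members after PBS were called. With only the 2 groups compared, 10 members were called in BALB/c (9 higher and 1 lower), 5 genes in BALB-RAG, and 142 genes and 0 members after PBS. Centring gave 25 genes in BALB-RAG, 15 higher and 10 lower (10 and 2 without), and 1 member after PBS; the mean of probe sets gave 21 genes in BALB-RAG. The cause of these shifts was not tested.

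Leaving out 1 array gave 7 to 14 members in BALB/c (lowest without OVA replicate 2), 0 to 0 in BALB-RAG, 4 to 8 for the difference, 0 to 3 after PBS and 14 to 19 after OVA. Over all genes it gave 790 to 1168, 6 to 42 (highest without BALB-RAG OVA replicate 2), 414 to 687, 174 to 397 and 1332 to 1799. Limits are that 47 of 137 members had no realigned probe set, that 31 more lay under the filter, and that Muc4, Muc13, Galnt6 and B3gnt5 lay near it in some groups.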
